A study of Rattus norvegicus with 2 samples.

Results

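Clusterin (Clu) was measured by 1 of the 20174 gene probes on each array, the probe that carries the rat Ensembl gene ID ENSRNOG00000016460. The gene was chosen because of its values in these data, a bright spot in saline RNA and a lower ratio with OBP-801, so its levels and ratios are given as a description with no test. The files carry the ID without a symbol, and the pairing of this ID with Clu was taken as given. Clusterin, also called apolipoprotein J, is a secreted glycoprotein that binds partly unfolded proteins outside the cell and keeps them in solution, as a chaperone does. It also travels with lipoproteins and can block the terminal complement complex. In the rat prostate it is a classic marker of regression: its older names include TRPM-2 (testosterone-repressed prostate message 2) and SGP-2 (sulfated glycoprotein 2, a product of rat Sertoli cells), and its mRNA is known to climb in the ventral lobe after castration. In human prostate cancer it is known as a protein that helps cells survive androgen withdrawal and cytotoxic drugs.

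The RNA came from male TRAP rats, transgenic animals in which a probasin promoter drives SV40 T antigen in the prostate epithelium, so the treated and the control tissue both came from tumour-bearing glands and no gland without the transgene was analysed here. OBP-801, an inhibitor of histone deacetylases (enzymes that take acetyl groups off histones and other proteins), was given intravenously at 1 mg/kg, 2 times a week for 8 weeks from 6 weeks of age, and controls received saline on the same schedule. The treatment protocol gives the dose per kilogram and other labels give it as 1 mg, and the control diet is the only diet named. One two-colour array held ventral and the other lateral prostate RNA, each with OBP-801 RNA in Cy3 and saline RNA in Cy5. How many rats gave each RNA is not given in the sources used here. A lobe thus had a single array and no replicate, and since the dyes were never exchanged, a dye preference of the Clu probe and an effect of the treatment cannot be told apart. In tissue RNA, fewer clusterin-producing cells and less clusterin mRNA per cell cannot be told apart either.

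The Clu spot was one of the brightest on both arrays. Brightness also depends on how each probe hybridises and is labelled, so its place among the probes is one of spots and not of transcript abundance. Net signal is the spot median less the mean of the blank spots, in intensity units. In the ventral prostate Clu had a net signal of 28426 units in OBP-801 RNA, against 34542 units in saline RNA. In the lateral prostate it had 30831 units in OBP-801 RNA, against 33174 units in saline RNA. The signal was thus of similar height in all 4 RNAs before any correction for the dyes, 1.22-fold lower with OBP-801 in the ventral lobe and 1.08-fold lower in the lateral lobe. The median gene probe had only 50.5 units in OBP-801 and 23.7 units in saline RNA of the ventral lobe, and 41.3 and 20.6 units in those of the lateral lobe. The spot was not at the detector ceiling of 65535 units in any RNA, and none of its scanner flags was raised.

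**Figure D1:**
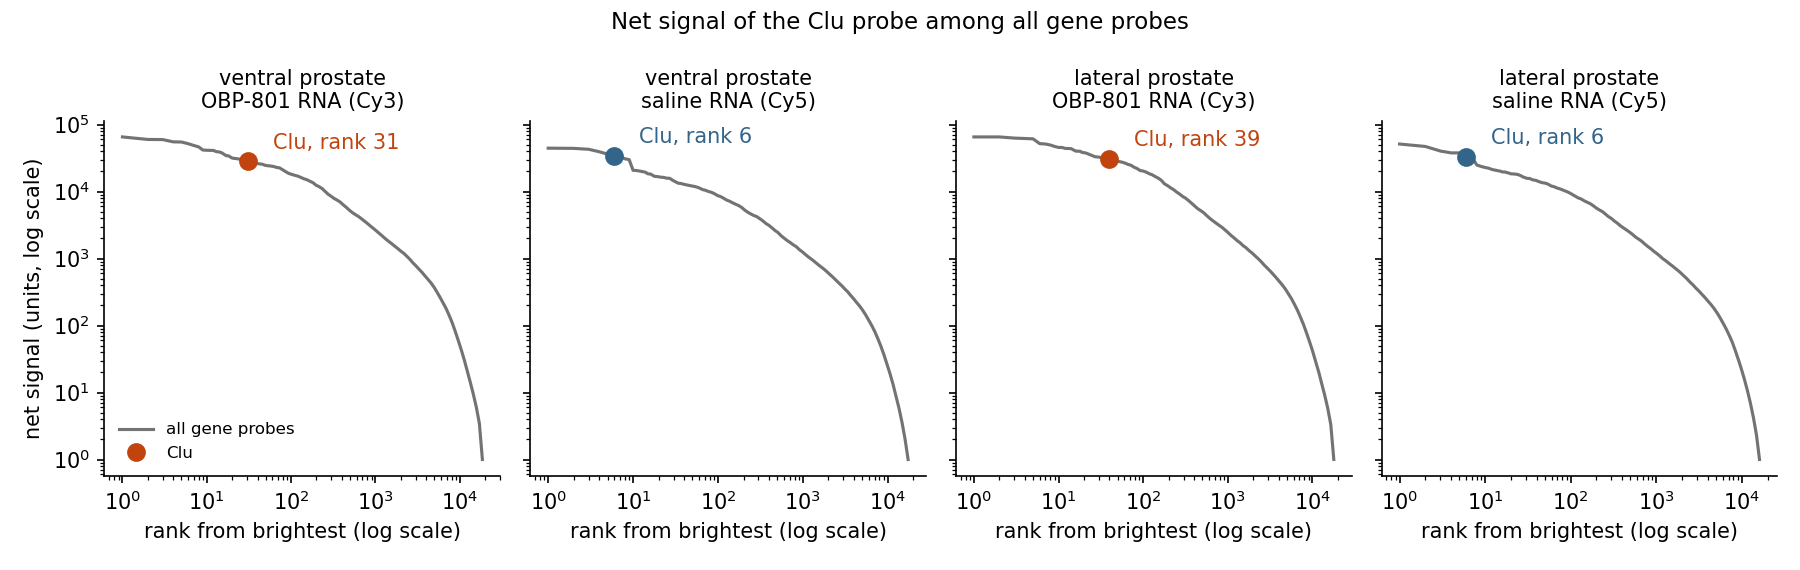
Net signal (units, log scale) of all gene probes against their rank from the brightest (log scale), with the Clu probe as a dot, in OBP-801 and saline RNA of each lobe. Clu lies at rank 31 and 39 in OBP-801 RNA of the ventral and lateral lobe, and at rank 6 in saline RNA of both, where the curve also has a step below the brightest probes.

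The rank of Clu moved more than its signal did. By net signal it was the 31st brightest of 20174 gene probes in ventral OBP-801 RNA, against rank 6 in ventral saline RNA. In the lateral prostate it had rank 39 in OBP-801 RNA, against rank 6 in saline RNA. A rank within a channel does not depend on the overall balance of the dyes, although it does depend on the dye preference of each probe. In the ventral lobe 5 probes were brighter than Clu in both RNAs and 25 were brighter only in OBP-801 RNA. In the lateral lobe those numbers were 5 and 33. The probes that stood above Clu with OBP-801 but not with saline were partly the same in both lobes, with 20 in common, 80% of the ventral and 60.6% of the lateral ones. The 2 arrays shared the dye orientation, so a dye preference of a probe would enter both lobes alike. The 25 ventral and 33 lateral probes included 11 and 19 with a whole-number scanner value in Cy3 and decimals in Cy5. Probes with whole numbers in both dyes were also included, at ranks 7, 8 and 9 in ventral and rank 7 in lateral saline RNA. In Cy3 Clu itself had decimals. This difference in how the values were assembled, described further below, was present on both arrays. Its part in the shared probes was not tested.

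**Figure D2:**
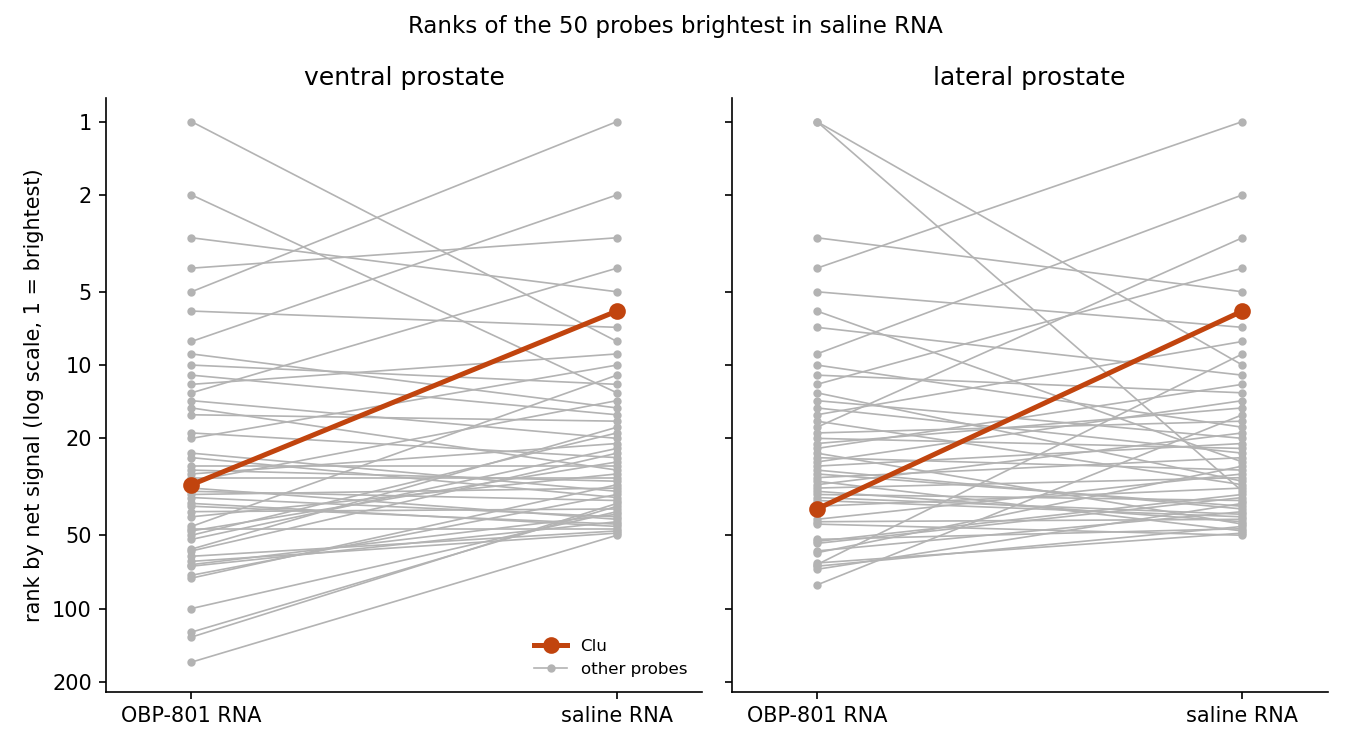
Rank by net signal (log scale, 1 at the top) of the 50 probes brightest in saline RNA, in OBP-801 RNA on the left and saline RNA on the right of each panel, for the ventral and the lateral prostate. The Clu line runs between ranks 31 (ventral) and 39 (lateral) in OBP-801 RNA and rank 6 in saline RNA of both lobes.

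Among the 50 probes brightest in ventral saline RNA, the rank of Clu grew by a factor of 5.17 in OBP-801 RNA, and the largest factor of any other was 5. In the lateral lobe the factor for Clu was 6.5, and 1 of the other probes exceeded it with 7.33. Over the 50 probes the factor had a median of 1.29 (ventral) and 1.10 (lateral). The 50 were picked by a high saline signal, and Clu for its values in these data. Both choices favour factors above 1 in advance. The factor also grows faster near the top of the list. The ventral factor of 5 came from a probe at rank 1 in saline and rank 5 in OBP-801 RNA. The share of signal moved in the same direction as the rank. Clu held 0.212% of the net signal of all gene probes in ventral OBP-801 RNA, against 0.540% in ventral saline RNA, a share 2.55-fold lower. In the lateral prostate it held 0.237% in OBP-801 RNA, against 0.520% in saline RNA, a share 2.20-fold lower.

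The treatment ratio was then set against the balance of the dyes, since Cy3 ran brighter than Cy5 for most bright probes. Before any normalization Clu had a log2 ratio of OBP-801 over saline of -0.28 in ventral tissue and -0.10 in lateral tissue. The 100 gene probes nearest to Clu in mean log2 signal had a median of 1.02 in the ventral and 1.09 in the lateral lobe. The positive control spots, of which the arrays carry 24 for each of 2 controls, averaged 0.96 and 1.17 (ventral array) or 0.81 and 1.29 (lateral array). All of these points lay above Clu: the lowest log2 ratio among its 100 neighbours was 0.01 (ventral lobe) and -0.01 (lateral lobe). With the intensity-dependent dye trend removed by loess, the log2 ratio of Clu was -1.45 in the ventral prostate, 2.74-fold lower with OBP-801. In the lateral prostate it was -1.28, 2.42-fold lower with OBP-801. Replicate spots of the positive controls scattered far less, with an SD of 0.07 and 0.12 in the ventral and of 0.06 and 0.08 in the lateral log2 ratio (24 spots each). This SD covers spot-to-spot error within an array. It covers no difference between rats and no dye preference of a single probe. After loess the means of the 2 controls were 0.03 and -0.20 on the ventral and 0.16 and -0.33 on the lateral array.

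**Figure D3:**
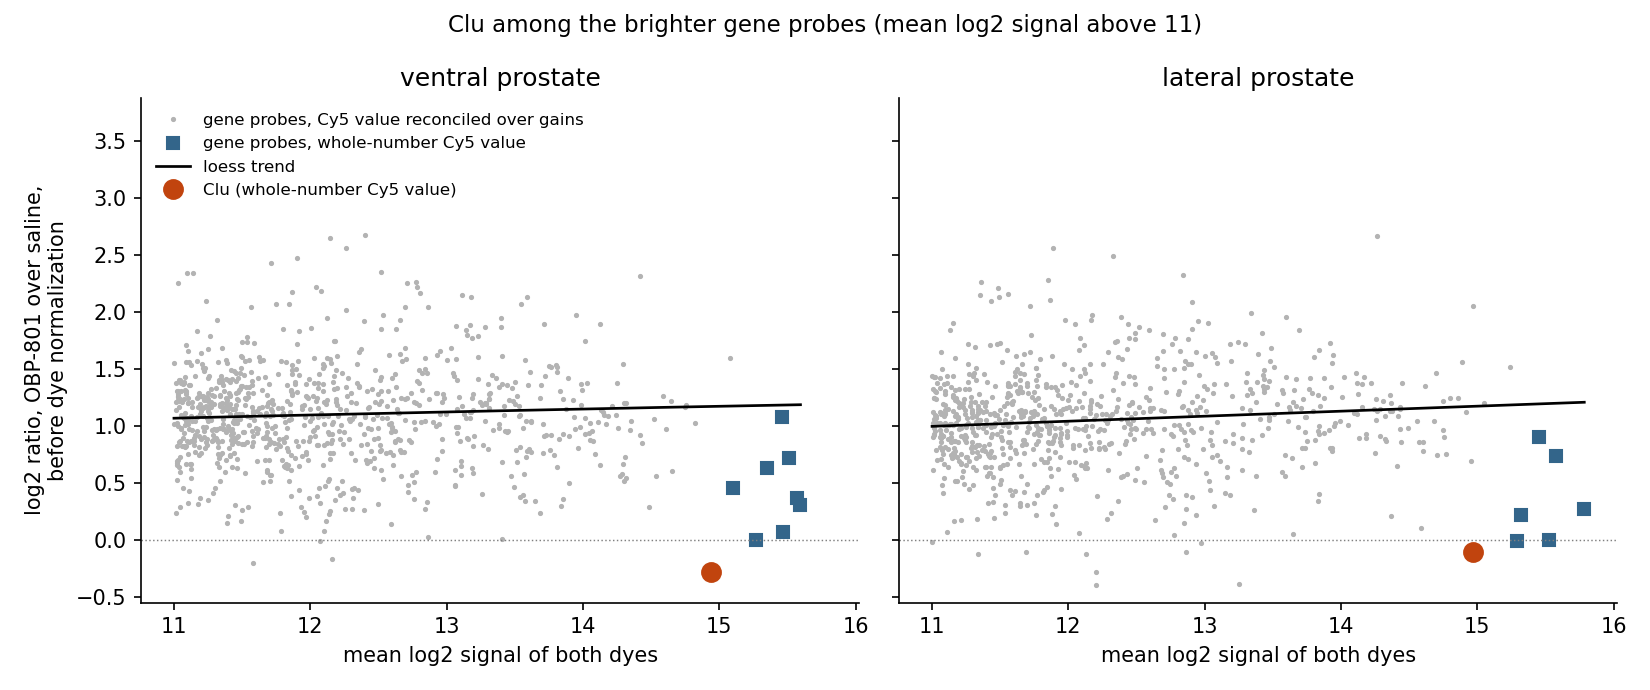
Log2 ratio of OBP-801 over saline before dye normalization against the mean log2 signal of both dyes, for gene probes with a mean above 11, on the ventral and the lateral array. Clu (large dot) lies at -0.28 and -0.11, under the loess trend (line, 1.17 at Clu in both lobes), and the other probes with a whole-number Cy5 value (squares) also lie under that trend.

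How many probes showed a decrease of this size depended on the handling of dim probes. In ventral tissue 17153 probes had either channel well above background, and with an offset of 50 units 25 of them (0.146%) showed a decrease of 2-fold or more with OBP-801; Clu had the lowest ratio of all of them. In the lateral lobe 59 of 15726 such probes (0.375%) did, and Clu was at position 23 from the lowest ratio. These places describe the value that chose the gene. They also rest on the offset, which draws the ratios of dim probes towards 0 and leaves those of bright probes as they are. With the blank mean subtracted in place of normexp and its offset, and loess kept, Clu was at position 373 in the ventral and 421 in the lateral lobe. The authors' deposited table, which has neither that offset nor a loess trend, lists Clu at a log2 ratio of -1.36 (2.57-fold lower) for the ventral and -1.11 (2.16-fold lower) for the lateral prostate. In the authors' deposited table it was at position 39 of 15699 listed ventral probes and at position 199 of 14372 listed lateral probes. Over all tested probes the log2 ratio had a median of 0.00 in the ventral and 0.01 in the lateral lobe, and its middle 95% ran from -0.50 to 0.59 and from -0.54 to 0.58.

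Of 15465 probes tested in both lobes, 14 were at least 2-fold lower in both, and these were mostly much dimmer than Clu. The offset lowers this count among dim probes, and both arrays shared the dye orientation. The median net signal of the 14 in saline RNA was 2155 units in the ventral and 1244 units in the lateral lobe. Clu was the 3rd brightest of the 14 in saline RNA of either lobe, and also 3rd from the lowest by the sum of both log2 ratios. The 2 brighter ones were, like Clu, among the probes with whole-number Cy5 values described below. Against its 100 neighbours in mean signal, Clu had the lowest normalized ratio on both arrays, as it had before normalization. This place, too, describes the value that chose the gene. Those neighbours had a median normalized log2 ratio of -0.14 in the ventral and -0.05 in the lateral lobe, with an SD of 0.42 and 0.40 across probes. When the neighbours were taken by saline signal alone, 1 lateral probe had a lower ratio than Clu, -1.48, and no ventral probe had.

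The way the scanner values were assembled touches the brightest probes, Clu among them. The files reconcile 3 scanner gains into a single value, and nearly all values carry decimals. In Cy5, the saline channel, 9 ventral and 7 lateral gene probes had a whole number instead, to within 1e-06 units. These were the brightest ones, at 30023 units and above in the ventral and 32813 units and above in the lateral lobe, while no value with decimals exceeded 20796 and 24928 units. Clu, with spot medians of 34558 and 33188 units in saline RNA, was among them on both arrays. Its values in OBP-801 RNA, 28484 units (ventral) and 30895 units (lateral), carried decimals and lay below the lowest whole-number Cy3 values of 34067 and 34556 units. Among the probes with a whole-number Cy5 value, Clu alone had decimals in Cy3, and the other 8 ventral and 6 lateral probes had whole numbers in both dyes. The opposite mix was more frequent, with 11 ventral and 19 lateral probes that had a whole number in Cy3 and decimals in Cy5.

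The other probes with whole-number Cy5 values also had low ratios. After loess all 8 measured ratios were below 0 in the ventral lobe, between -1.17 and -0.10, and all 6 were below 0 in the lateral lobe, between -1.20 and -0.29. They were picked by a high saline signal, and that choice favours low ratios in advance. Clu was lower than each of them, by 0.28 in the ventral and 0.08 in the lateral lobe against the nearest one. Set against the median of these probes instead of the loess trend, the log2 ratio of Clu became -0.69 for the ventral (1.62-fold lower) and -0.35 for the lateral prostate (1.28-fold lower). A pair of these probes had a whole number in ventral but decimals in lateral saline RNA. Their normalized log2 ratios were -0.72 in the ventral and -1.05 in the lateral lobe for one, and -0.10 and -0.19 for the other. The second of them was at the detector ceiling in ventral OBP-801 RNA, so its ventral ratio is a lower bound. The part of the gain reconciliation in the Clu ratio was not tested.

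The local background around the Clu spot was also high. It was 13637 units in Cy3 and 9293 units in Cy5 on the ventral array, against array medians of 78.0 and 23.0 units. On the lateral array it was 10761 units in Cy3 and 6449 units in Cy5, against medians of 81.4 and 22.5 units. Less this local background, Clu had 14848 units in OBP-801 and 25265 units in saline RNA of the ventral lobe, and 20133 units in OBP-801 and 26739 units in saline RNA of the lateral lobe. The signal in OBP-801 RNA was the lower one in both lobes with this correction too. Its rank then became 38 in OBP-801 and 9 in saline RNA of the ventral lobe, and 15 in OBP-801 and 5 in saline RNA of the lateral lobe.

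**Figure D4:**
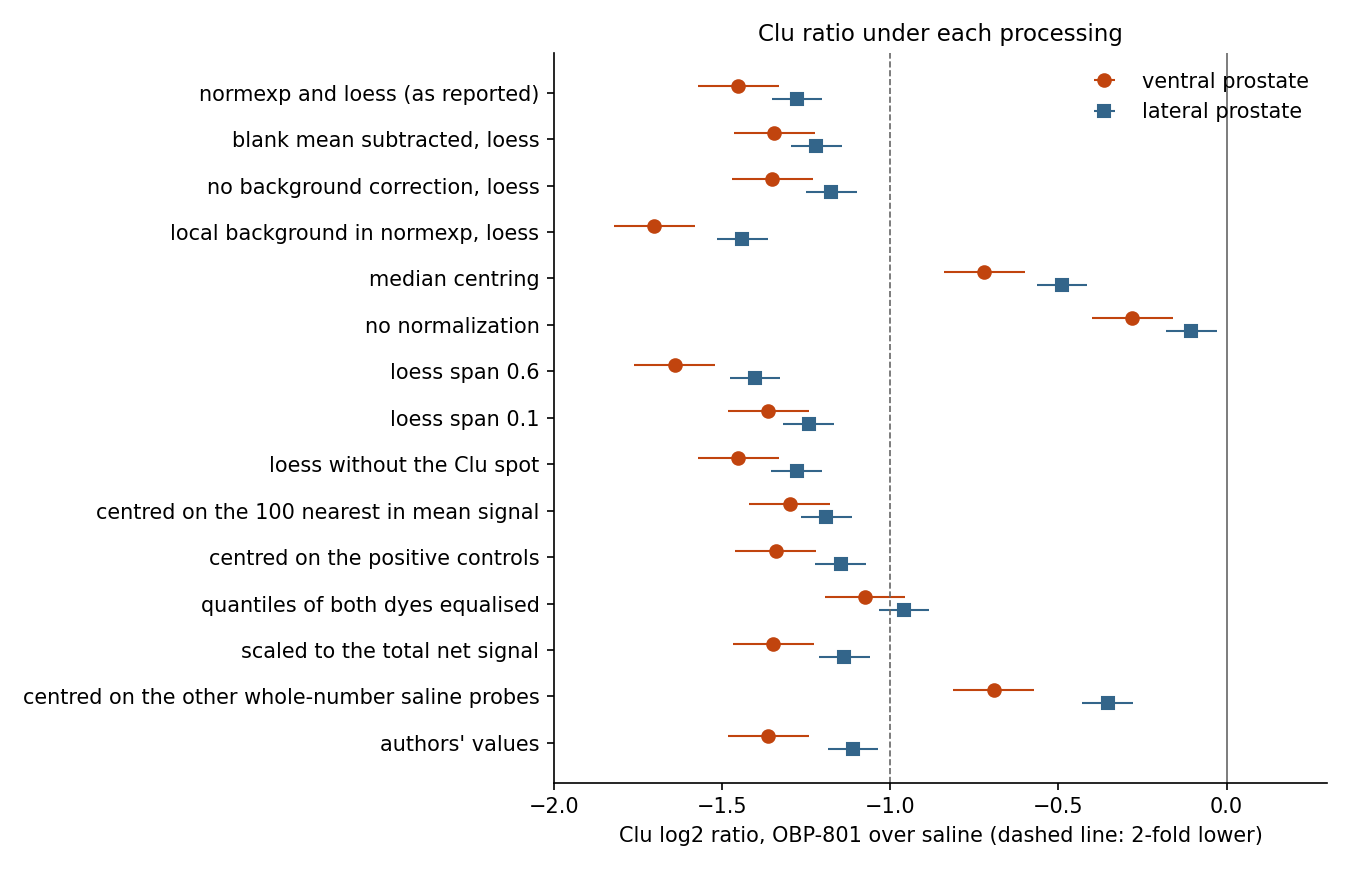
Log2 ratio of OBP-801 over saline of Clu in the ventral (dots) and lateral (squares) prostate under the processing used here and each alternative. Bars are ± 1 SD over the 24 spots of the more variable positive control of that array, and cover spot-to-spot error only. All values are below 0, and they range from -1.70 to -0.28 in the ventral and from -1.44 to -0.11 in the lateral lobe.

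The Clu ratio was below 0 under every one of 14 alternatives, and its size varied with them. All of them use the same spot readings, and the ratio that chose the gene was below 0 before any correction of the dyes. Each correction of the dyes lowered it further, so the shared sign is not a replication. In the ventral prostate 11 of the 14 gave a level at least 2-fold lower with OBP-801, and in the lateral prostate 10 did. The smallest decreases were those with no correction of the dyes, -0.28 in the ventral and -0.11 in the lateral lobe. Median centring with the offset kept gave -0.72 and -0.49. That centring subtracts the median log2 ratio of all gene probes, which with the offset was 0.44 (ventral) and 0.38 (lateral), whereas the authors' deposited table corresponds to constants of 1.08 and 1.00 without it. Scaling each channel to its total net signal gave -1.35 and -1.14, and equalising the quantiles of the dyes gave -1.08 and -0.96.

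Clusterin levels were also set side by side between the lobes. On the log2 scale after normalization between arrays, OBP-801 RNA gave a Clu signal of 14.23 for the ventral and 14.31 for the lateral lobe, a difference of -0.09. In saline RNA it had 15.68 in ventral and 15.59 in lateral tissue, a difference of 0.09. The equal size of both differences follows from the normalization, which gives the same mean signal to a probe of equal rank, and Clu had rank 10 by mean signal on both arrays. Spot by spot, the difference between the arrays had an SD of 0.10 in OBP-801 RNA and 0.16 in saline RNA over the 24 spots of the more variable control. Neither difference exceeded this spread under this normalization. The spread leaves out shifts of a whole probe between the arrays. The mean differences of the 2 controls were -0.47 and 0.33 in OBP-801 RNA, and -0.34 and 0.19 in saline RNA. More than 50 percent of the tested probes lay further apart between the lobes, 61.0% in OBP-801 and 52.1% in saline RNA. The level was lower in OBP-801 than in saline RNA of both lobes, and the order of the lobes in saline RNA depended on the setting. With channel medians equalised the lobes differed by -0.21 in OBP-801 RNA, more than the SD over control spots given above. In saline RNA they then differed by -0.01, with lateral tissue the higher one. Quantile normalization over all channels gave a difference of -0.03 in OBP-801 RNA and of 0 in saline RNA. A value under that setting depends only on the rank of the probe within its channel, so the 0 reflects an equal rank in both lobes. Lobe and array cannot be told apart.

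The ventral ratio was the lower one, by slightly more than the spread of control spots. That spread leaves out shifts of a whole probe from one array to the other, and the controls showed such shifts in both directions. After loess, 1 control averaged 0.03 (ventral) against 0.16 (lateral), and the other -0.20 (ventral) against -0.33 (lateral). A shift of this kind and a difference between the lobes cannot be told apart for Clu. The ventral log2 ratio lay 0.17 below the lateral one, at a combined control SD of 0.14 and an SD of 0.16 over all probes compared, and 15.2% of the 15465 probes compared had a larger difference in either direction. The difference had the same sign under each of the 14 alternatives, which use the same spot readings. It lay between -0.34 and -0.11, and was smaller than the control SD under some of them. It was not tested, since each lobe had 1 array.

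The pattern most like that of Clu was sought among 14215 other probes well above background in all 4 RNAs. Likeness was the distance over 4 values, the 2 normalized log2 ratios and the 2 mean log2 signals, each divided by its SD over probes. The nearest probe was ENSRNOG00000032872, at a distance of 1.08, where the median probe was at 9.52. It had net signals of 39461 units in OBP-801 and 39349 units in saline RNA of the ventral lobe, and of 40001 and 40310 units in OBP-801 and saline RNA of the lateral lobe. Its normalized level with OBP-801 was lower by a factor of 2.26 (ventral) and 2.29 (lateral). ENSRNOG00000037169 followed at a distance of 1.35 and was 2.16-fold and 2.29-fold lower. Both belong to the probes with whole-number Cy5 values, and their net signals in the 2 dyes were nearly equal. The 10 nearest probes reached out to a distance of 2.68, with log2 ratios between -1.26 and -0.82 in the ventral and between -1.33 and -0.79 in the lateral lobe.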

How the data were processed

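Per the labels' protocols, aRNA carrying amino allyl groups was made from total RNA, coupled to Cy dyes and processed as Toray prescribes. The deposited scanner files give spot and local background intensity as medians per wavelength, brought together over 3 scanner gains by least-squares lines, per the file headers. These intensity values were neither background-subtracted nor normalized. The authors' log2 table has no header on how it was made. Its values equalled the log2 of net Cy3 over net Cy5 less a constant, with an SD of the remainder of 1.7e-05 (ventral) and 2.1e-05 (lateral), which makes them OBP-801 over saline, with a median of 0.

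Ratios were computed with limma 3.58.1 in R 4.3.3 (normexp, offset 50, no local background; loess, span 0.3, control spots at weight 0). Local background was not used, as it followed the spot itself (correlation of log2 values across gene probes 0.915 to 0.987). A channel was well above background 2 SD over the mean of 5808 blanks, with 5% left out at each end. Treatment ratios used probes passing in at least 1 channel. Lobes were compared after Aquantile normalization. Summaries used Python 3.11.15, numpy 2.4.6 and pandas 2.3.3. The calculation was tested on simulated arrays, built with the same dye trend that loess then removed. They modelled neither the gain reconciliation nor a dye preference of single probes, so they cannot address these for Clu. The gene, the lists and the settings were chosen with earlier results of these data known. The named probes were Clu and the 2 most alike, by ID. The reference gene table used here (GRCr8) paired none of the 20174 IDs with a symbol, so 8 gene lists around clusterin and 7 lists of cell type markers were not evaluated, and the labelled tissue was not checked against markers. The number of arrays limits the precision. Alternatives comprised other background corrections, dye normalizations, filters, thresholds and the authors' log2 table. RNA extraction kits differ between the labels (miRNeasy) and the design text (RNeasy Micro).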

Additional observations from a re-analysis of the deposited data

How the results depend on the processing

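No paired analysis was possible because only a single array was made for either lobe. The alternative with a single scanner gain was not run, since the values used here are reconciled over gains. Equalised quantiles, scaling to total signal and centring on the other whole-number Cy5 probes were chosen after seeing the data. The log2 ratio of Clu, -1.45 ventral and -1.28 lateral, became -1.70 and -1.44 with the local background, -0.28 and -0.11 with the dyes left as they were, -0.72 and -0.49 when centred on the median, and -1.64 and -1.40 with a loess span of 0.6. It became -1.30 and -1.19 when centred on the 100 nearest probes, -1.08 and -0.96 with equalised quantiles, and -0.69 and -0.35 when centred on the other whole-number probes, where the lobes differed by -0.34. The lateral ratio alone moved by more than the control SD with no background correction (-1.18), centring on the positive controls (-1.15), scaling to total signal (-1.14) and the authors' deposited table (-1.11). The median of all probes, 0.44 and 0.38 with the offset, sets the values under median centring; for the other settings the cause was not tested. The counts of probes at least 2-fold lower, 25 ventral and 59 lateral, became 276 and 312 at 1.5-fold, 0 and 5 at 3-fold, 2 and 7 with median centring and 205 and 276 in the authors' deposited table; with 1 array per lobe these are counts without a test. The position of Clu from the lowest ratio, 1 and 23, became 373 and 421 with the blank mean subtracted, 6 and 97 with median centring, and 39 and 199 in the authors' deposited table. Its rank in lateral OBP-801 RNA, 39, became 15 with the local background subtracted. The ventral minus lateral difference in OBP-801 RNA, -0.09, became -0.21 with channel medians equalised, and that in saline RNA, 0.09, became -0.01. Of 68 values under an alternative 33 stayed within 1.5 times (counts and ranks) or within the control SD and 35 did not. None changed the sign of the treatment ratio, which was already negative with the dyes left as they were. Clu exceeded the blanks by 10824 blank SDs or more in every RNA, so the distance from the blanks does not limit these values.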
